A study of Homo sapiens with 12 samples.

Results

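The nuclear genes for subunits of the mitochondrial respiratory chain were followed in VAL and OCI-LY3, established human lines derived from diffuse large B-cell lymphoma, during treatment with AZ5576, a selective inhibitor of CDK9. Members were the protein-coding genes named with the prefixes NDUFA, NDUFB, NDUFC, NDUFS, NDUFV, UQCR, COX4 to COX8 and ATP5, with SDHA, SDHB, SDHC, SDHD and CYC1, at a mean of at least 5 CPM (counts scaled to a fixed library total) over the libraries. The NDUFAF genes, which encode assembly factors of complex I, were kept apart. Of 58233 genes in the count table, 92 carried such a name and 78 reached the level. By name these were 36 of complex I, 4 of complex II, 10 of complex III, 11 of complex IV and 17 of complex V. Grouping by name keeps ATP5SL, which is not an ATP synthase subunit, in complex V, and NDUFA4, now placed in complex IV, in complex I. Another 8 NDUFAF genes reached it. Names are those of the count table, with the current symbol in brackets where it differs.

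Poly(A)+ RNA was sequenced from each line untreated (0 h) and after 3 h or 6 h with 300 nM AZ5576. There were 12 libraries, 2 for each of the 6 combinations of line and time. The controls are labelled as time 0 without the drug, while the series text speaks of vehicle, and no other control was analysed here. Whether replicates came from different cultures is not stated in the labels, so p-values measure the spread between these libraries, which may be technical.

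The respiratory chain moves electrons from NADH (complex I) and succinate (complex II) through complexes III and IV to oxygen, and complex V, the ATP synthase, uses the proton gradient this makes. Complexes I, III, IV and V hold subunits from both genomes of the cell: most are made from nuclear mRNAs of the kind followed here, and the core hydrophobic ones from mitochondrial DNA, which the mitochondrial RNA polymerase and not RNA polymerase II transcribes. All subunits of complex II are nuclear. CDK9 is the kinase that releases paused RNA polymerase II into elongation, so its inhibition acts on nuclear transcription.

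Libraries held 23175082 to 39715536 counts. The members held from 100 counts (NDUFA4L2, in an untreated OCI-LY3 library) to 88064 counts per gene and library. All 7 B-cell markers were present, with a summed level of 3320 to 4140 CPM, beside 2.29 to 6.02 CPM for 6 T-cell markers. Of the T-cell markers, TRAC had a mean of 1 CPM or more. The summed level of 6 myeloid markers was 0.586 to 22.1 CPM, with MPO, ITGAM and CD14 at a mean of 1 CPM or more. That of 7 epithelial and stromal markers was 14.4 to 106 CPM, with COL1A1 and PECAM1 at a mean of 1 CPM or more. For 4 erythroid markers it was at most 0.151 CPM, with HBB at 0. KRT18 and KRT19 were also at 0. Within a group, the replicates differed by a median of 0.052 on the log2 scale in VAL at 0 h, and by 0.229 and 0.235 at 3 h and 6 h. For OCI-LY3 these medians were 0.051, 0.11 and 0.093. The treated VAL replicates thus stood further apart than any other pair. The VAL libraries numbered 1, untreated included, are marked in the labels as resubmitted, without saying what was repeated, and its part in this spread was not tested. Values without the treated VAL libraries numbered 1 or 2 are given beside the counts. The lines were run on separate lanes, so line and lane cannot be told apart.

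Levels below are CPM scaled for library composition (TMM). A log2 change was called when edgeR's quasi-likelihood test gave a Benjamini-Hochberg adjusted p under 0.05 over 16374 genes tested. It is given ± its standard error, and all tests are two-sided. A change is relative to the other mRNAs of the library, and in bulk RNA less mRNA per cell and other changes of total RNA cannot be told apart from it.

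On the TMM scale most subunit genes were higher after AZ5576 in both lines, although all of them lay below 0 when scaled to mitochondrially encoded mRNAs. As plain shares of each library's counts, with no composition factor, fewer were called higher: 31 and 42 in VAL and 54 and 68 in OCI-LY3, at 3 h and then 6 h. The TMM counts follow. In VAL, 64 of 78 were higher and 1 was lower at 3 h, where 29.6% of all genes tested were higher and 25.1% lower. At 6 h, 64 were higher and 3 lower, beside 34.0% and 32.2% of all genes. In OCI-LY3, 65 were higher and 0 lower at 3 h (1 was lower at an unadjusted p under 0.05, 0 by DESeq2 and 1 by limma-voom), beside 17.8% and 24.3% of all genes, and 72 were higher and 2 lower at 6 h, beside 28.1% and 33.4%. The median change of the members was 0.636 on the log2 scale in VAL at 3 h and 0.819 at 6 h, where that of all genes was 0.165 and 0.098. It was 0.643 in OCI-LY3 at 3 h and 0.953 at 6 h, where that of all genes was 0.000 and -0.009. Of the 64 members higher at 6 h in VAL, 63 (98.4%) were also higher in OCI-LY3, which is 87.5% of the 72 there. With 72 of 78 higher in OCI-LY3, nearly any set of members would overlap about this much. The overlap over all genes was not counted. These 2 comparisons share no library, but they share the fit, with its scaling and its estimate of spread.

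Both treated libraries lay above both controls for 67 members in VAL at 3 h and 68 at 6 h, where 42.5% of all genes did so at each time. In OCI-LY3 this held for 74 members at 3 h and 74 at 6 h, beside 37.6% and 40.2% of all genes. Without the treated VAL libraries numbered 1, 74 members were higher in VAL at 3 h and 73 at 6 h. Without those numbered 2, 65 were higher at 3 h and 63 at 6 h, and 8 were lower at 6 h. The 3 h counts rest on single libraries: the VAL count was 16 or 17 without VAL 0 h replicate 1 or 2, 37 without VAL 3 h replicate 2, 39 without either OCI-LY3 0 h library and 41 without OCI-LY3 3 h replicate 2. The OCI-LY3 count at 3 h was 24 and 39 without OCI-LY3 0 h replicate 1 and 2, and 21 without OCI-LY3 3 h replicate 1. At 6 h the count of higher members stayed between 47 and 73 in VAL and between 69 and 73 in OCI-LY3 whichever library was left out.

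**Figure D1:**
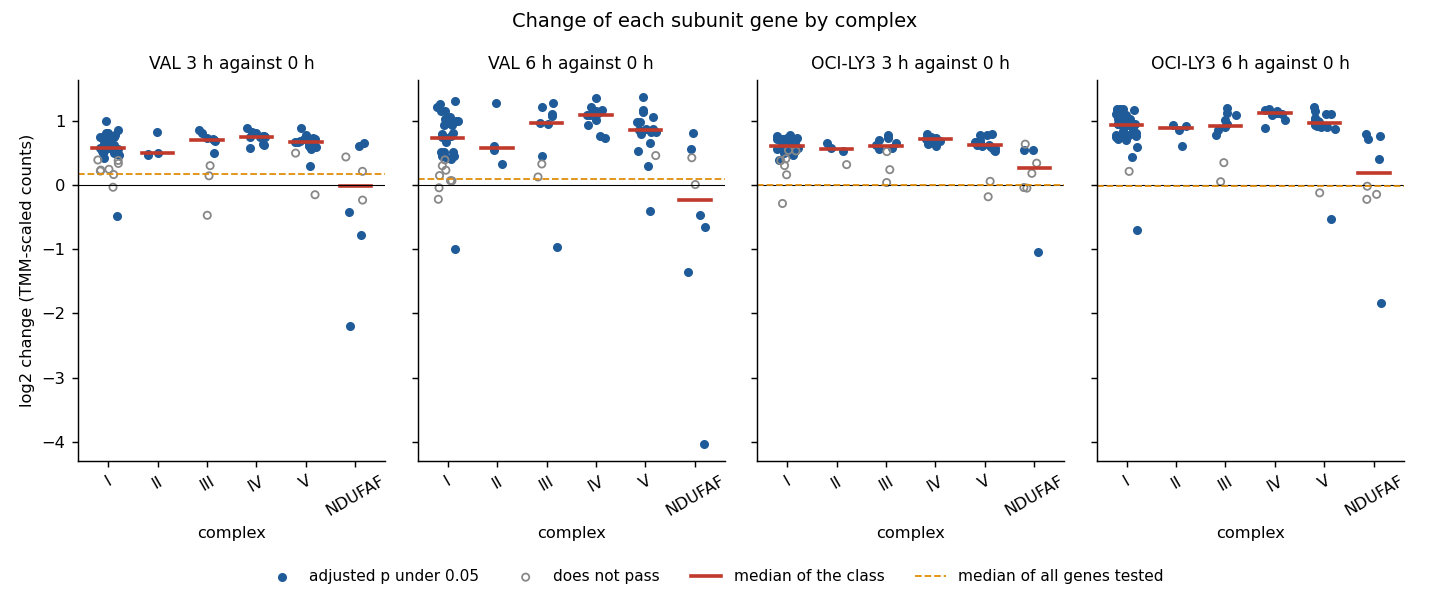
Log2 change of each of the 78 subunit genes by complex (I to V) and of the 8 NDUFAF genes, on TMM-scaled counts, in the 4 comparisons with 0 h; filled points passed an adjusted p under 0.05, red bars are class medians and the dashed line is the median of all genes tested. Most filled subunit points lie above 0, and those below it are NDUFV3, UQCRFS1 (VAL 6 h) and ATP5SL (6 h); against mitochondrially encoded mRNAs all 78 lie below 0.

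The direction depends on what the counts are set against. Scaled to the 13 mitochondrially encoded mRNAs, all 78 members lay below 0 in each of the 4 comparisons, with medians of -0.741 and -1.351 in VAL and -0.501 and -0.604 in OCI-LY3 at 3 h and 6 h. Scaled to 86 ribosomal protein mRNAs, 75 members lay below 0 at 3 h and 78 at 6 h in VAL, as did 55 and 64 in OCI-LY3. With no composition factor, 12 members lay below 0 at 3 h and 21 at 6 h in VAL, as did 5 and 6 in OCI-LY3. A scaling moves all genes of a library by one amount, so the distance between the members' median and that of all genes hardly depends on it. That distance was 0.471 and 0.72 in VAL, and 0.643 and 0.962 in OCI-LY3. It did depend on single libraries. For VAL at 3 h it was 0.742 and 0.27 without VAL 3 h replicate 1 and 2. For VAL at 6 h it was 1.001 and 0.578 without VAL 6 h replicate 1 and 2. For OCI-LY3 at 3 h it was 0.527 and 0.759 without OCI-LY3 3 h replicate 1 and 2. Every "higher" below is meant on the TMM scale, on which it was tested.

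The members together took 1.42% and 1.414% of all counts in the untreated VAL libraries, 1.568% and 1.884% at 3 h, then 1.681% and 1.99% at 6 h. In OCI-LY3 they took 1.601% and 1.639% untreated, 2.241% and 2.073% at 3 h, and 2.466% and 2.481% at 6 h. All treated libraries lay above the controls of their line. The share of the 13 mitochondrially encoded mRNAs grew more, from a mean of 1.85% ± 0.145 (SD, n = 2) to 3.92% ± 1.07 and 6.03% ± 1.24 in VAL, while in OCI-LY3 it went from 2.31% ± 0.0865 to 4.51% ± 1.04 and 5.26% ± 0.17. For each count of a mitochondrial mRNA there were 0.7287 and 0.8111 counts of nuclear subunit mRNA in untreated VAL, and 0.2436 and 0.3861 at 6 h. In OCI-LY3 the ratio was 0.6762 and 0.7301 untreated and 0.4587 and 0.483 at 6 h. The 2 lowest ratios of any library were those of VAL replicate 1 at 3 h (0.3351) and 6 h.

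**Figure D2:**
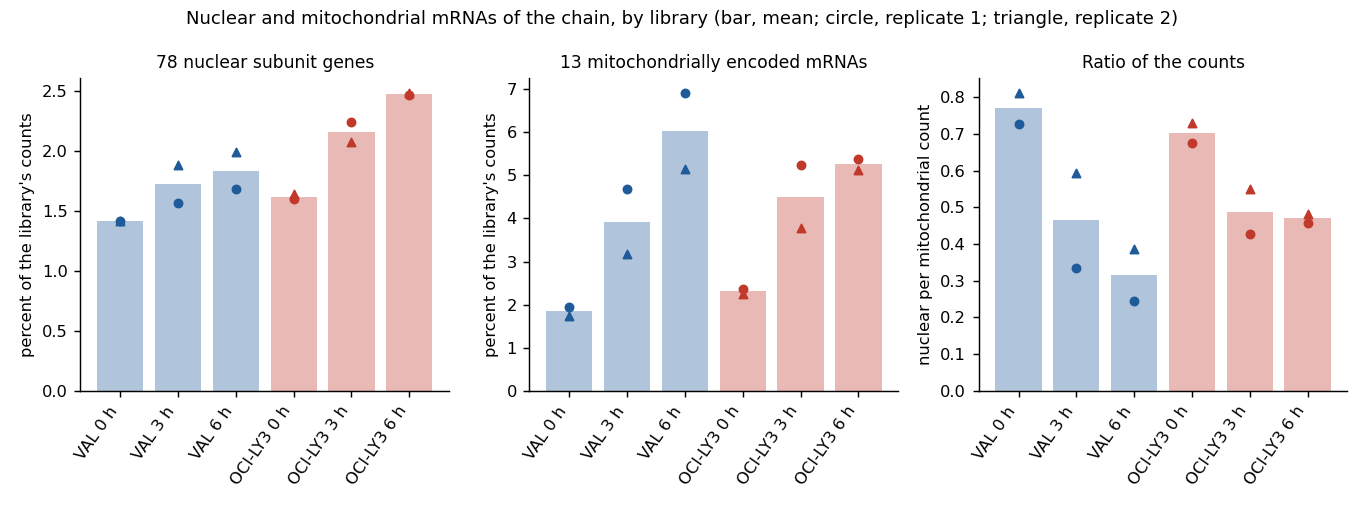
Percent of each library's counts on the 78 nuclear subunit genes (left) and on the 13 mitochondrially encoded mRNAs (middle), and the ratio of the 2 counts (right), by group; bars are means and points the 2 libraries. Both shares are higher in every treated library than in the controls of its line, and the ratio is lower, falling from 0.7287 and 0.8111 to 0.2436 and 0.3861 in VAL at 6 h.

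Complex I oxidises NADH. Of its 36 members, 27 were higher and 1 lower in VAL at both times, 29 and 0 in OCI-LY3 at 3 h, and 34 and 1 at 6 h. NDUFV1, which binds the flavin that takes electrons from NADH, measured 218.3 and 219.6 CPM in untreated VAL, 318.6 and 421.8 at 3 h, then 390.0 and 526.5 at 6 h. In OCI-LY3 it measured 355.0 and 355.8, then 627.9 and 564.4, then 779.8 and 815.5. No treated library overlapped the controls of its line, and the 6 h change was 1.07 ± 0.157 in VAL (edgeR adjusted p = 0.000125) and 1.17 ± 0.157 in OCI-LY3 (edgeR adjusted p = 7.29e-05). NDUFS1, the large iron-sulfur subunit, rose by 0.79 ± 0.089 in VAL and 0.78 ± 0.0886 in OCI-LY3 at 6 h, and NDUFA1, a small accessory subunit, by 1.30 ± 0.159 and 1.18 ± 0.158. NDUFS7 and NDUFS8, which carry iron-sulfur clusters on the way to the quinone, rose by 0.77 ± 0.149 and 0.42 ± 0.143 in VAL and by 0.95 ± 0.15 and 0.75 ± 0.143 in OCI-LY3 at 6 h. NDUFB8, of the membrane arm, rose by 1.00 ± 0.199 and 1.09 ± 0.199, and NDUFAB1, the mitochondrial acyl carrier protein, by 0.74 ± 0.203 and 0.97 ± 0.203. NDUFA4L2 (0.99 ± 0.111) was the highest member in VAL at 3 h. NDUFA1 was among the 3 highest members in VAL at 6 h, and NDUFA2 (1.18 ± 0.192) in OCI-LY3 at 6 h.

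Several accessory genes of complex I did not pass in VAL: NDUFA6, NDUFA8, NDUFA9, NDUFA11, NDUFC1, NDUFC2, NDUFS3 and NDUFS4 at either time. All of them other than NDUFC2 passed upward in OCI-LY3 at 6 h. NDUFA8, for one, changed by -0.04 ± 0.171 in VAL and 0.44 ± 0.17 in OCI-LY3 at 6 h (edgeR adjusted p = 0.839 and 0.0435). That OCI-LY3 call was lost without OCI-LY3 3 h replicate 1 and without each of the OCI-LY3 0 h and 6 h libraries, where the change was between 0.42 and 0.54. In OCI-LY3 at 3 h the lowest changes that passed were those of NDUFS1 (0.38 ± 0.0882), NDUFA5 (0.46 ± 0.108) and NDUFC1 (0.49 ± 0.152). All of them lost the call without OCI-LY3 0 h replicate 1 (0.41, 0.48 and 0.54), NDUFA5 and NDUFC1 without OCI-LY3 3 h replicate 1 (0.40 and 0.37), and NDUFC1 without OCI-LY3 0 h replicate 2 (0.53). NDUFB10 was the lowest complex I gene called higher in VAL at 3 h (0.42 ± 0.151), and its call was lost in 8 of 14 refits that left out libraries, with a change of 0.20 to 0.61.

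NDUFV3 stood out within complex I. It encodes an accessory subunit of the NADH-oxidising module and lies on chromosome 21, bases 42879644 to 42913304 of GRCh38 (ENSG00000160194). Its level was 29.52 and 27.58 CPM in untreated VAL, 19.78 and 21.03 at 3 h, then 14.57 and 13.89 at 6 h. In OCI-LY3 it was 29.66 and 28.78, then 25.65 and 22.22, then 18.31 and 17.5. All treated libraries were below the controls of their line, and the 6 h libraries below those of 3 h. NDUFV3 fell by 1.00 ± 0.115 on the log2 scale in VAL at 6 h (edgeR adjusted p = 1.81e-05), to 0.499 of the control, and by 0.71 ± 0.114 in OCI-LY3 (edgeR adjusted p = 0.000261). At 3 h it fell by 0.49 ± 0.112 in VAL, while the OCI-LY3 value of -0.29 ± 0.112 did not pass (edgeR adjusted p = 0.0592). It also fell between 3 h and 6 h in each line, by 0.52 ± 0.115 and 0.42 ± 0.114. That OCI-LY3 call was lost without OCI-LY3 3 h replicate 1 and without either OCI-LY3 6 h library. NDUFV1, in the same module, was called higher in all 4 comparisons with 0 h.

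Complex II, succinate dehydrogenase, is also an enzyme of the citric acid cycle. All 4 of its genes were higher in VAL at both times and in OCI-LY3 at 6 h, and 3 of 4 in OCI-LY3 at 3 h, where SDHD gave 0.32 ± 0.127 (edgeR adjusted p = 0.0658). SDHC, a membrane anchor, rose in VAL from 60.22 and 64.13 CPM to 142.1 and 159.1 at 6 h, a change of 1.28 ± 0.102. SDHA, the flavoprotein that oxidises succinate, measured 222.8 and 217.1 CPM in untreated VAL, 289.0 and 328.4 at 3 h, then 254.1 and 300.0 at 6 h. In OCI-LY3 it measured 195.3 and 198.0, then 288.8 and 280.2, then 339.2 and 370.3. As plain counts, SDHA held 9360 of 34134616 and 8519 of 31561576 in untreated VAL. At 6 h it held 6715 of 28303815 and 6306 of 25321061 there, lower shares than in both controls. On the TMM scale its 6 h change was 0.33 ± 0.108 in VAL and 0.85 ± 0.108 in OCI-LY3. The difference between lines, 0.52 ± 0.152, passed (edgeR adjusted p = 0.0282). That call was lost in 7 of 14 refits: without any of the VAL 0 h, OCI-LY3 0 h or OCI-LY3 6 h libraries or without VAL 6 h replicate 1, where the difference was 0.40 to 0.64. SDHB, the iron-sulfur subunit, rose by 0.61 ± 0.143 and 0.92 ± 0.143 at 6 h.

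Complex III passes electrons from ubiquinol to cytochrome c. Of its 10 genes, 7 were higher in VAL at 3 h and 6 h and in OCI-LY3 at 3 h, and 8 in OCI-LY3 at 6 h. UQCRH, the hinge protein, rose in VAL from 245.4 and 241.8 CPM to 431.7 and 600.3 at 6 h, and in OCI-LY3 from 246.1 and 251.7 to 576.9 and 564.1. Its change at 6 h was 1.08 ± 0.179 in VAL and 1.20 ± 0.18 in OCI-LY3, where it was among the 3 highest. UQCRHL, a closely similar copy that is also a member, was counted at 8.879 to 26.36 CPM and rose by 1.27 ± 0.187 and 1.10 ± 0.186; how reads were shared between the pair is uncertain. UQCRC1 and UQCRC2, the core proteins, rose by 0.45 ± 0.159 and 0.95 ± 0.126 in VAL and by 0.95 ± 0.16 and 0.90 ± 0.126 in OCI-LY3 at 6 h. CYC1, the cytochrome c1 gene, changed by 0.13 ± 0.203 in VAL at 6 h (edgeR adjusted p = 0.606) and rose by 0.78 ± 0.203 in OCI-LY3. UQCR11 passed in none of the 4 comparisons, with changes of 0.04 to 0.33 and adjusted p-values from edgeR of 0.12 to 0.892.

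UQCRFS1, the Rieske iron-sulfur protein of complex III, differed between the lines (chromosome 19, bases 29205321 to 29213541 of GRCh38, minus strand, ENSG00000169021). In VAL it measured 111.8 and 106.8 CPM untreated, 60.08 and 97.69 at 3 h, then 42.8 and 69.65 at 6 h. In OCI-LY3 it measured 154.6 and 158.5, then 195.0 and 174.5, then 200.5 and 198.1. All treated VAL libraries were below their controls and all treated OCI-LY3 libraries above theirs. UQCRFS1 fell by 0.96 ± 0.232 in VAL at 6 h (edgeR adjusted p = 0.00361), while the OCI-LY3 value of 0.35 ± 0.228 did not pass (edgeR adjusted p = 0.208). The difference between lines at 6 h was 1.31 ± 0.325 (edgeR adjusted p = 0.0137), and 1.00 to 1.70 over 14 refits that left out libraries, in all of which it passed. The treated VAL replicates of this gene were far apart.

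Complex IV, cytochrome c oxidase, was the one complex with every gene called higher in all 4 comparisons, 11 of 11. Complex II missed this by 1 gene, SDHD in OCI-LY3 at 3 h. Calls of members at 3 h depended on single libraries, as given above, and this was not counted by complex. The complex IV medians were 0.749 and 1.094 in VAL and 0.717 and 1.12 in OCI-LY3. COX4I1, the common form of subunit 4, measured 316.5 and 310.9 CPM in untreated VAL, 454.2 and 600.1 at 3 h, then 597.6 and 760.5 at 6 h. In OCI-LY3 it measured 383.7 and 402.3, then 697.5 and 598.0, then 812.3 and 875.9. Its 6 h change was 1.11 ± 0.153 in VAL and 1.10 ± 0.153 in OCI-LY3. COX6C, a membrane subunit, was among the 3 highest members in VAL at 3 h and 6 h and in OCI-LY3 at 3 h (0.89 ± 0.157, 1.35 ± 0.159 and 0.79 ± 0.157). COX7C and COX8A rose by 1.16 ± 0.171 and 1.21 ± 0.141 in VAL and by 1.15 ± 0.171 and 1.17 ± 0.14 in OCI-LY3 at 6 h. COX5A and COX5B, whose product binds zinc, rose by 0.74 ± 0.17 and 0.76 ± 0.209 in VAL and by 0.89 ± 0.17 and 1.09 ± 0.209 in OCI-LY3. COX7A2L, known for joining complexes III and IV, rose by 0.93 ± 0.152 and 1.02 ± 0.153 at 6 h. NDUFA4, listed by name under complex I, encodes a protein now placed in complex IV, and it rose by 1.15 ± 0.167 and 1.16 ± 0.167 at 6 h.

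The tissue forms of complex IV subunits were barely counted. COX4I2, COX7A1, COX7B2, COX8C and COX6B2 had means under 5 CPM, of 0.00292, 0.0144, 0.0036, 0.0345 and 0.146 CPM, and COX6A2 had no count. Their common counterparts COX4I1, COX7A2, COX7B, COX8A, COX6B1 and COX6A1 all were members.

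Complex V makes ATP. Of its 17 members by name, 15 were higher in each of the 4 comparisons. The 17 include ATP5SL and ATP5S, described below. ATP5B (ATP5F1B), the catalytic beta subunit, was the most abundant member per length, with 998.6 CPM per kb of principal mRNA in untreated VAL and 1044 in OCI-LY3. It measured 1843 and 1830 CPM in untreated VAL and 2949 and 3788 at 6 h, and 1882 and 1958 then 3820 and 3872 in OCI-LY3, a change of 0.88 ± 0.14 and 1.00 ± 0.14. ATP5A1 (ATP5F1A), the alpha subunit, rose by 0.82 ± 0.12 and 0.93 ± 0.12, and ATP5C1 (ATP5F1C), the gamma subunit, by 0.53 ± 0.162 and 0.92 ± 0.163. ATP5O (ATP5PO), of the peripheral stalk, gave 0.46 ± 0.232 in VAL at 6 h (edgeR adjusted p = 0.102) and rose by 0.98 ± 0.233 in OCI-LY3. ATP5E (ATP5F1E), the epsilon subunit of the central stalk, was among the 3 highest members in all 4 comparisons. It measured 280.6 and 276.3 CPM in untreated VAL, 443.8 and 588.2 at 3 h, and 611.7 and 827.6 at 6 h, and in OCI-LY3 230.7 and 230.9, then 442.6 and 355.7, then 538.0 and 529.0. The change at 6 h was 1.37 ± 0.169 in VAL, or 2.58-fold (edgeR adjusted p = 3.27e-05), and 1.21 ± 0.169 in OCI-LY3, or 2.31-fold (edgeR adjusted p = 9.43e-05). ATP5I (ATP5ME) was among the 3 highest in OCI-LY3 at 3 h (0.79 ± 0.217); its call was lost without OCI-LY3 0 h replicate 1 or 2 or without OCI-LY3 3 h replicate 1, with 0.79, 0.87 and 0.58. The 3 genes for the identical c subunit of the rotor, ATP5G1, ATP5G2 and ATP5G3 (ATP5MC1 to ATP5MC3), rose by 0.88 ± 0.235, 0.98 ± 0.169 and 0.65 ± 0.203 in VAL and by 1.01 ± 0.236, 0.91 ± 0.17 and 0.96 ± 0.203 in OCI-LY3 at 6 h.

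The complex V name that was called lower was ATP5SL, at 6 h in both lines. It is now DMAC2, a factor for the assembly of the membrane arm of complex I (chromosome 19, bases 41431318 to 41440717 of GRCh38, minus strand, ENSG00000105341), and not an ATP synthase subunit. It measured 47.75 and 48.81 CPM in untreated VAL and 34.02 and 38.72 at 6 h, and 49.6 and 50.84 then 33.26 and 36.14 in OCI-LY3. It fell at 6 h by 0.41 ± 0.121 in VAL (edgeR adjusted p = 0.0115) and by 0.53 ± 0.121 in OCI-LY3 (edgeR adjusted p = 0.00274); the VAL call was lost without VAL 6 h replicate 1 (-0.32). ATP5S is now DMAC2L. It changed by 0.30 ± 0.104 and 0.29 ± 0.104 in VAL and by 0.06 ± 0.103 and -0.12 ± 0.104 in OCI-LY3. The VAL 3 h call of ATP5S was lost in 6 of 14 refits that left out libraries, where its change was between 0.14 and 0.34.

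**Figure D3:**
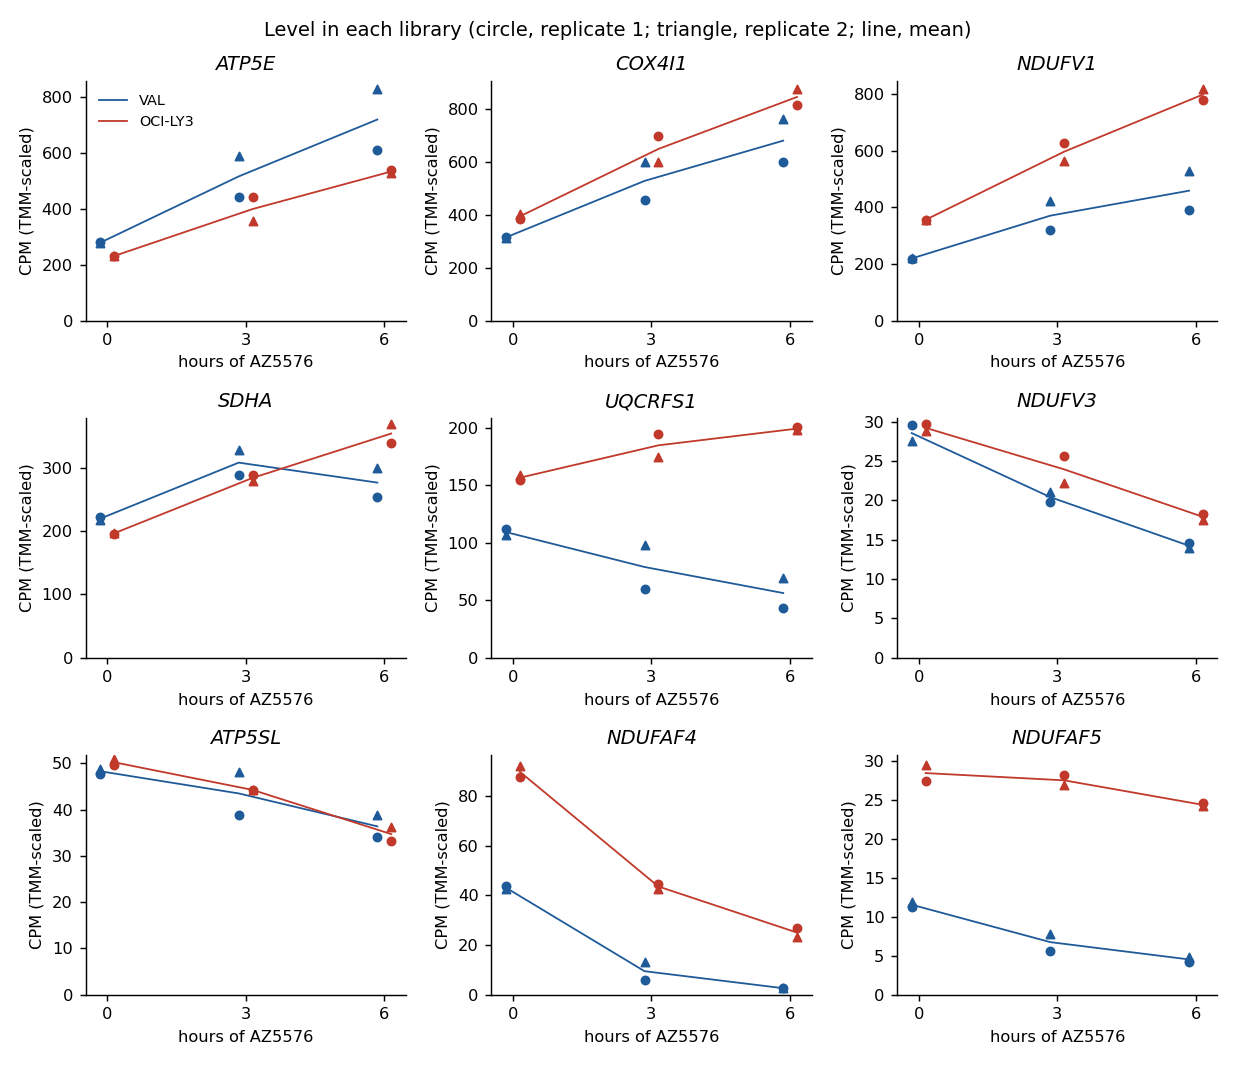
TMM-scaled CPM of 9 genes in every library against hours of AZ5576, VAL in blue and OCI-LY3 in red; circles and triangles are the libraries and lines join the means. ATP5E, COX4I1 and NDUFV1 are higher in all treated libraries, UQCRFS1 lies below its controls in VAL and above them in OCI-LY3, and NDUFV3 and NDUFAF4 are lower in all treated libraries; on the scale of mitochondrially encoded mRNAs all of them lie below their controls.

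The 8 assembly factors of complex I went in both directions; their difference from the subunits was not tested. Of these NDUFAF genes, 2 were higher and 3 lower in VAL at 3 h, 2 and 4 at 6 h, 2 and 1 in OCI-LY3 at 3 h, and 4 and 1 at 6 h, against the shares of all genes given above (29.6% and 25.1% for VAL at 3 h). NDUFAF4 measured 43.63 and 42.54 CPM in untreated VAL, 5.916 and 13.06 at 3 h, then 2.535 and 2.759 at 6 h. In OCI-LY3 it measured 87.6 and 91.86, then 44.63 and 42.48, then 26.82 and 23.22. It fell by 4.03 ± 0.303 in VAL at 6 h, to a level 16.3-fold lower (edgeR adjusted p = 8.2e-07), and by 1.84 ± 0.254 in OCI-LY3, 3.59-fold lower (edgeR adjusted p = 8.71e-05). The difference between lines, 2.18 ± 0.385, passed (edgeR adjusted p = 0.00273). Its OCI-LY3 call at 3 h, -1.04 ± 0.246, was lost without OCI-LY3 3 h replicate 2 (-0.96, edgeR adjusted p = 0.0504).

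NDUFAF5, a methyltransferase-family assembly factor, fell in VAL from 11.28 and 11.88 CPM to 4.238 and 4.852 at 6 h (-1.35 ± 0.158). In OCI-LY3 it measured 27.48 and 29.52 untreated and 24.6 and 24.23 at 6 h (-0.22 ± 0.142, edgeR adjusted p = 0.194). The difference at 6 h was 1.13 ± 0.212 (edgeR adjusted p = 0.0037). NDUFAF6 fell in VAL by 0.42 ± 0.129 and 0.65 ± 0.13, and its 3 h call was lost without VAL 3 h replicate 1 (-0.23). NDUFAF7 fell in VAL at 6 h by 0.47 ± 0.105; its difference between lines, 0.45 ± 0.147 (edgeR adjusted p = 0.0411), passed in 6 of 14 refits that left out libraries, with 0.43 to 0.60. NDUFAF2 and NDUFAF3 were higher in all 4 comparisons, by 0.54 to 0.81, although single libraries decided some of these calls: at 3 h, without VAL 0 h replicate 1 or 2 the VAL values were 0.53 and 0.51 for NDUFAF2 and 0.47 and 0.50 for NDUFAF3, and without OCI-LY3 0 h replicate 1 or OCI-LY3 3 h replicate 1 the OCI-LY3 values were 0.56 and 0.40, and 0.51 and 0.46. The VAL 6 h call of NDUFAF2 was also lost without VAL 0 h replicate 1 or 2 (0.52 and 0.50). In OCI-LY3 at 6 h, NDUFAF1 (0.40 ± 0.154) and NDUFAF8 (0.72 ± 0.248) were higher, calls lost without any OCI-LY3 0 h or 6 h library, with 0.37 to 0.47 and 0.65 to 0.82, and for NDUFAF1 also without OCI-LY3 3 h replicate 1.

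The wider list of 48 assembly factors for all complexes had 14 higher and 17 lower in VAL at 6 h, near the 34.0% and 32.2% of all genes, and 19 higher and 12 lower in OCI-LY3, where 28.1% and 33.4% of all genes passed. The same shares of all genes stand behind the 6 h counts of the lists that follow. The 4 with the smallest adjusted p all fell. COA7, which acts in complex IV assembly, measured 158.1 and 152.8 CPM in untreated OCI-LY3 and 18.9 and 17.72 at 6 h (-3.09 ± 0.165). TMEM70, for complex V, measured 87.26 and 81.46 CPM in untreated VAL and 6.357 and 6.85 at 6 h (-3.68 ± 0.222). COX10, which makes heme O, and COX19, a copper-handling factor, fell by 2.29 ± 0.135 and 2.30 ± 0.139 in OCI-LY3 at 6 h.

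Of 18 regulators of these genes, 3 were higher and 12 lower in VAL at 6 h, and 1 higher and 13 lower in OCI-LY3. NRF1, the nuclear respiratory factor that binds many subunit promoters, measured 24.75 and 25.03 CPM in untreated OCI-LY3 and 5.246 and 5.848 at 6 h (-2.16 ± 0.127). In VAL it measured 37.82 and 36.93 untreated and 21.23 and 17.74 at 6 h, a called change of -0.94. PPRC1, a coactivator of the PGC-1 family, and ESRRA, an orphan nuclear receptor, fell by 2.66 ± 0.16 and 2.18 ± 0.139 in VAL at 6 h, and TFB2M, a transcription factor of mitochondrial DNA, by 2.68 ± 0.157. Passing upward against the majority were GABPB2 in VAL at both times (0.77 and 0.77), POLRMT, the mitochondrial RNA polymerase, in VAL at both times (0.72 and 0.98), GABPA (0.38) and TFAM (0.31) in VAL at 3 h, and MYC at 6 h in each line (0.67 and 0.68).

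Among 18 enzymes of the citric acid cycle and pyruvate dehydrogenase, 11 were higher in VAL at 6 h and 16 in OCI-LY3, with 0 lower in each. SUCLG2, a succinyl-CoA ligase subunit, rose in VAL from 48.44 and 47.53 CPM to 159.8 and 149.4 at 6 h (1.69 ± 0.117). MDH2, malate dehydrogenase, rose by 1.13 ± 0.104 in VAL, and DLD, a subunit of pyruvate dehydrogenase, by 0.87 ± 0.0836 in OCI-LY3. Of 17 genes for electron carriers and ubiquinone synthesis, 5 were higher and 7 lower in VAL at 6 h, and 7 and 3 in OCI-LY3. ETFA, the electron-transfer flavoprotein subunit, rose by 1.08 ± 0.12 in VAL, while PDSS1, DHODH and COQ2 fell there by 1.60 ± 0.14, 1.44 ± 0.135 and 1.11 ± 0.136. All 13 mitochondrially encoded mRNAs were higher at 6 h in each line, with medians of 2.204 in VAL and 1.604 in OCI-LY3. Scaled to mitochondrial mRNAs, SUCLG2, MDH2, DLD and ETFA lay below 0.

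The 6 h libraries were also compared with those of 3 h. Replicate numbers linked both times in VAL (deviations correlated at 0.742), which the main fit did not model. With a replicate block, 13 members were higher and 2 lower in VAL, beside 1564 and 2858 of 16374 genes. In OCI-LY3 the block gave 34 and 2, beside 2412 and 3136 genes. Counts of the main fit follow. In VAL, 3 were higher (NDUFA1, SDHC and NDUFA10, by 0.49, 0.45 and 0.40) and 1, NDUFV3, was lower, where 7.54% and 15.3% of all genes passed. In OCI-LY3, 10 were higher and 1 lower, beside 12% and 16.3%. These counts varied widely: from 1 to 33 in VAL and from 0 to 70 in OCI-LY3 when libraries were left out. The highest values came without the treated VAL libraries numbered 1 (33 and 70) or 2 (32 and 70), and every OCI-LY3 count moved by more than 1.5 times, to 28 without any 1 treated VAL library, 3 without any 1 untreated library of either line, 1 without OCI-LY3 3 h or 6 h replicate 1 and 0 without replicate 2. The VAL count was 22 without VAL 3 h replicate 2 and 24 without VAL 6 h replicate 1, and 1 without any 1 of VAL 0 h replicates 1 and 2, VAL 3 h replicate 1, VAL 6 h replicate 2 and the OCI-LY3 0 h and 6 h libraries.

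The lines were also compared directly. In the change at 3 h, 0 members differed between lines in either direction by edgeR, 0 at an unadjusted p under 0.05 and 0 by DESeq2 or limma-voom, where 2.73% of all genes had a higher and 3.3% a lower value in OCI-LY3. At 6 h, 2 members (SDHA and UQCRFS1, above) were higher and 0 lower (2 lower at an unadjusted p under 0.05, 0 by DESeq2 and 1 by limma-voom), beside 12.3% and 14.4% of all genes. Without the treated VAL libraries numbered 2 there were 33 at 3 h and 48 at 6 h higher in OCI-LY3, and without those numbered 1 there were 12 and 13 lower. At 6 h the count of higher members was 18 without VAL 6 h replicate 2, 5 without either VAL 3 h library, and 1 without any 1 VAL or OCI-LY3 0 h library, OCI-LY3 6 h library or VAL 6 h replicate 1.

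Untreated, 28 members were higher and 5 lower in OCI-LY3 than in VAL, near the background of 29.8% and 26.5% of all genes for the first and below it for the second. COX7A2, a small subunit of complex IV (chromosome 6, bases 75237675 to 75250323 of GRCh38, minus strand, ENSG00000112695), measured 728.0 and 755.2 CPM in OCI-LY3 and 134.1 and 137.2 in VAL. This was 5.47-fold (2.45 ± 0.211, edgeR adjusted p = 2.24e-06), and the gene rose with treatment in both lines, to 1609 and 1614 CPM in OCI-LY3 and 237.2 and 342.0 in VAL at 6 h. NDUFB5, NDUFA5 and NDUFS1 followed, higher by 1.19 ± 0.12, 1.01 ± 0.109 and 1.00 ± 0.0891.

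NDUFA4L2, a paralogue of NDUFA4 known to be induced by hypoxia, was 6.62-fold lower in OCI-LY3 (-2.73 ± 0.124, edgeR adjusted p = 1.77e-08), at 2.441 and 2.846 CPM against 17.07 and 18.02. SDHC was 3.17-fold lower (-1.66 ± 0.105), at 19.06 and 20.19 CPM against 60.22 and 64.13, while SDHB and SDHD, of the same complex, were higher by 0.82 and 0.71. ATP5G2 was 3.12-fold lower (-1.64 ± 0.172), at 140.7 and 147.4 CPM against 452.6 and 446.3, while ATP5G3, which encodes the same c subunit, was higher by 0.82. COX6C and UQCRB were lower by 0.97 ± 0.158 and 0.78 ± 0.149, as log2 differences. The counts depended on libraries of these groups: without VAL 0 h replicate 1 or 2 and without OCI-LY3 0 h replicate 2, 11 members were higher, and 13 without OCI-LY3 0 h replicate 1. Without the treated VAL libraries numbered 1 or 2, 46 were higher and 10 lower.

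**Figure D4:**
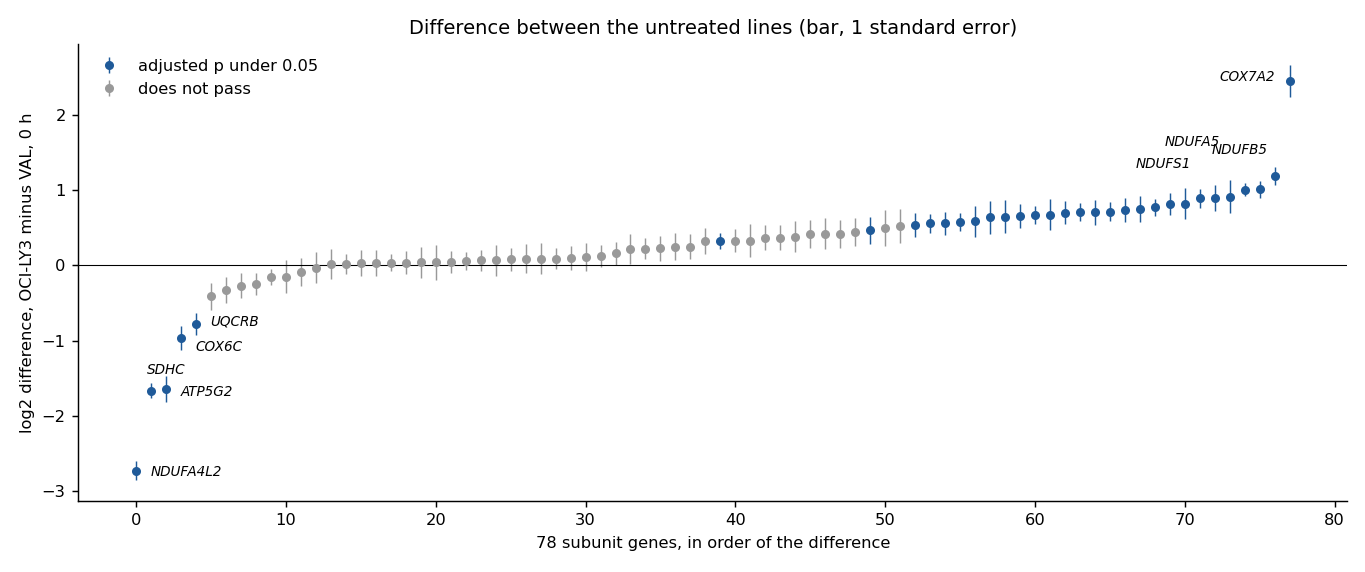
Log2 difference between untreated OCI-LY3 and VAL for the 78 subunit genes in order, with 1 standard error; blue points passed an adjusted p under 0.05. COX7A2 (2.45) and NDUFA4L2 (-2.73) stand at the ends, and most genes lie between 0 and 1.

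Members are short genes. Their median gene span was 12019 bases and their median principal mRNA 1166 bases, where 8770 protein-coding genes of at least 5 CPM had medians of 34181 and 3247 bases. Of the members 42.3% had an mRNA under 1000 bases, and 4.6% of the 8770 did. Among the other protein-coding genes, the shortest mRNAs had the highest median change, 0.469 and 0.508 in VAL and 0.522 and 0.752 in OCI-LY3 at 3 h and 6 h, and those of 4000 bases or more had 0.09 and -0.07 in VAL and -0.286 and -0.554 in OCI-LY3. In VAL the class of 2000 to 4000 bases was lower than the longest, at -0.07 and -0.405. The 33 members with an mRNA under 1000 bases had medians of 0.639 and 0.876 in VAL and 0.679 and 1.031 in OCI-LY3. The 9 members with an mRNA of 4000 bases or more had 0.646 and 0.794 in VAL and 0.536 and 0.934 in OCI-LY3. Members thus lay above other genes of like length in each class, by median, and within the members Spearman's rho of change with mRNA length was -0.011, -0.071, -0.36 and -0.24 over 78 genes (VAL 3 h and 6 h, OCI-LY3 3 h and 6 h), a description across genes that share libraries.

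**Figure D5:**
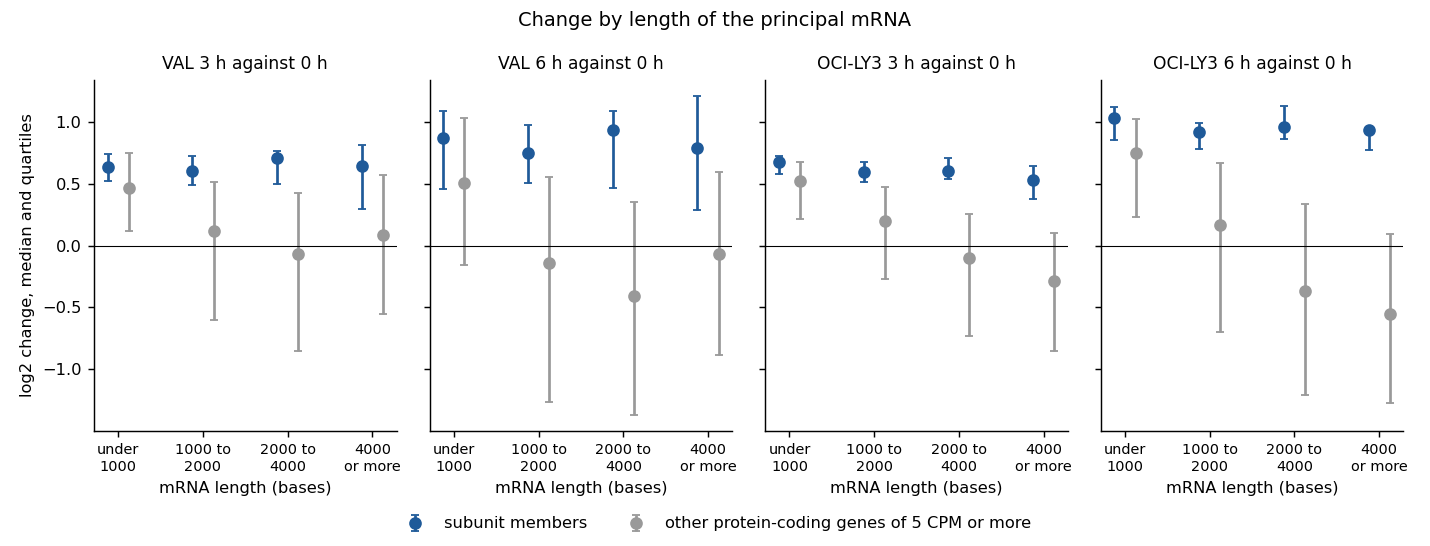
Median and quartiles of the log2 change (TMM scale) by length of the principal mRNA, for subunit members (blue) and other protein-coding genes of at least 5 CPM (grey), in the 4 comparisons with 0 h. Member medians stay between 0.536 and 1.031 in all classes, while other genes lie lower, down to -0.554; on the mitochondrial mRNA scale all members are below 0.

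Promoters of these genes are known for sites of NRF1, of ETS factors such as GABPA and of YY1. RefSeq promoters (GRCh38.p14, 250 bases before to 50 after the start) matched 61 members, of which 52 had 1 listed start and were searched on both strands. The NRF1 core GCATGCGC was in 11 of 52 (21.2%), in 3.26% of 22114 promoters with 1 listed start and in 6.83% of 5098 other protein-coding genes of at least 5 CPM. The ETS letters CCGGAAG were in 16 of 52 (30.8%), beside 10.7% and 25.5%. The YY1 letters AAGATGGC were in 9 of 52 (17.3%), beside 3.12% and 7.65%, and TATAAA was in 4 (7.69%), beside 12.7% and 4.43%. At least 1 of the first 3 was in 28 of 52 members (53.8%) and in 35.7% of the other expressed genes. The windows of NDUFV3, UQCRFS1 and ATP5SL, like those of many members, held none of them, and that of NDUFAF4 held NRF1 and ETS letters. Shown are the 150 bases before the RefSeq start, 5′ to 3′ on the gene's strand, of members that rose, with NRF1 core letters (NDUFS6), with ETS letters (NDUFB7) and with neither (UQCR10), and of NDUFAF4, which fell. Capitals mark the motif letters. The NRF1 match of NDUFAF4 lies in its searched window but is not among the bases shown. The windows are chr5:1801257-1801406, chr19:14572067-14572216 (minus strand), chr22:29767219-29767368 and chr6:96897892-96898041 (minus strand).
NDUFS6: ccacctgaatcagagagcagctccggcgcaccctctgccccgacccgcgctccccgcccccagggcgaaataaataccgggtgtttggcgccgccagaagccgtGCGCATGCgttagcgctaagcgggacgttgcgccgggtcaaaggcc
NDUFB7: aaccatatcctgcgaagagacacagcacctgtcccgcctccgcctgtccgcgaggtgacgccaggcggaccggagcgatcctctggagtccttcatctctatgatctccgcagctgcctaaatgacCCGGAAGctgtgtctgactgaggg
UQCR10: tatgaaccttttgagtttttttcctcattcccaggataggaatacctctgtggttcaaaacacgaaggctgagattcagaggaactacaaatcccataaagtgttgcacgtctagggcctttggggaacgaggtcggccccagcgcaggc
NDUFAF4: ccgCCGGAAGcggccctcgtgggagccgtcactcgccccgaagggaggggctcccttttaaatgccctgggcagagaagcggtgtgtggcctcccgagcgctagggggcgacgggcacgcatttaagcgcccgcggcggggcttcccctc

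NDUFS6, a subunit of complex I, rose in OCI-LY3 from 123.8 and 128.4 CPM to 231.8 and 245.4 at 6 h. NDUFB7 rose from 52.13 and 52.76 to 95.41 and 106.5, and UQCR10 from 111.3 and 119.1 to 202.2 and 213.1. These genes were picked for their direction, so nothing about the letters can be read from it.

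At the edge of the rule stood NDUFC2, the lowest member with a mean of 11.1 CPM, and NDUFA13, the highest name left out with 1.80 CPM. NDUFV2, a core subunit of complex I, and NDUFA7, an accessory one, were left out at 0.797 and 0.459 CPM. In GENCODE 29, 20.975% of the exonic bases of NDUFA13, 33.475% of those of NDUFA7 and 28.44% of those of NDUFV2 also belong to another gene. How the authors' counting treated such bases is not given in the sources used here, so these 3 levels are uncertain. Among members, 14 of 78 share at least 20% of their exonic bases with another gene, NDUFA1, ATP5E and ATP5I among them, and the library kit keeps no strand. Also left out were NDUFC2-KCTD14 and a second identifier named SDHD, both without counts, and ATP5EP2, ATP5J2-PTCD1 and ATP5L2, all under 0.1 CPM.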

How the data were processed

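Gene counts of 12 libraries were taken as deposited. Per the submitters' processing notes the build was GRCh38 and DESeq2 was used by the authors; for its version, the aligner and the counting program the sources used here give nothing. The authors also deposited a table of log2 normalized values, used for an alternative. Per the labels' protocols, libraries were unstranded TruSeq poly(A) libraries read on a HiSeq instrument. Libraries held 23175082 to 39715536 counts.

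Counts were fitted with edgeR 4.0.16 (R 4.3.3) over all 6 groups of line and time, with TMM scaling, filterByExpr and the quasi-likelihood F test on 6 residual degrees of freedom. P-values were adjusted by Benjamini-Hochberg over 16374 genes, with a threshold of 0.05. The procedure was run on simulated counts, with independent libraries, a fixed spread and as many genes raised as lowered. That setting does not cover the wide spread of the treated VAL replicates or the shifts of composition in these data. Alternatives used DESeq2 1.42.0, limma 3.58.1, other scalings, no filter, a replicate block, each line alone, and fits with libraries left out. GENCODE 29 gave coordinates and lengths (57895 of 58233 identifiers found). RefSeq GRCh38.p14 gave promoter sequences. Figures and descriptions used Python 3.11.15, pandas 2.3.3 and matplotlib 3.10.9.

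Members and gene lists were chosen with earlier results of these data known. Named with values were a set of core subunits, the 3 highest and 3 lowest that passed in each comparison with 0 h, all that passed against the majority, the 4 highest and lowest between lines, paralogue pairs, and names under the CPM limit. NDUFS6, NDUFB7 and UQCR10 were chosen after their values were seen, as promoter examples whose RefSeq start lies near the annotated gene start. Some results that the naming rule selects are not reported here.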

Additional observations from a re-analysis of the deposited data

Results flagged for a closer look

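The 6 h change differed between the lines, by edgeR's test of the difference itself (OCI-LY3 minus VAL, log2), in 5 genes of the chain or of complex I assembly. NDUFAF4 differed by 2.18 and fell in both lines, further in VAL. NDUFAF5 differed by 1.13 and passed downward in VAL. UQCRFS1 differed by 1.31, with the treated libraries below the controls in VAL and above them in OCI-LY3. SDHA differed by 0.52 and rose in both lines on the TMM scale, while its plain share of counts in VAL was lower at 6 h than untreated. NDUFAF7 differed by 0.45 and passed downward in VAL. The SDHA and NDUFAF7 calls were lost in fits without single libraries, as given above. Line and lane cannot be told apart.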

How the results depend on the processing

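Counts of members higher and lower are given in that order. Left-out libraries gave 16 to 74 and 1 to 3 in VAL at 3 h, 47 to 73 and 2 to 8 at 6 h, 21 to 73 and 0 to 2 in OCI-LY3 at 3 h, and 69 to 73 and 2 at 6 h. They gave 1 to 33 and 1 to 4 between 3 h and 6 h in VAL, 0 to 70 and 0 to 3 in OCI-LY3, 11 to 46 and 5 to 10 between lines at 0 h, 0 to 33 and 0 to 12 for the difference of the 3 h change, and 1 to 48 and 0 to 13 for that of the 6 h change. Where 1 sample was left in a group, it was assumed to vary like the others.

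Scaled to mitochondrial mRNAs, 0 members were higher in any comparison with 0 h, and 50, 78, 13 and 28 were lower (VAL 3 h and 6 h, OCI-LY3 3 h and 6 h). Scaled to ribosomal protein mRNAs, 0 were higher and 36, 65, 10 and 31 lower. Between 3 h and 6 h the first gave 0 and 25 in VAL and 0 and 2 in OCI-LY3, and the second 0 and 47, and 0 and 7. Between lines at 0 h the first gave 2 and 9, and the second 53 higher. For the difference of the 6 h change they gave 5 and 34 higher, and for that of the 3 h change the second gave 1 higher. Without a composition factor there were 31 and 3 in VAL at 3 h, 42 and 6 at 6 h, 2 lower in OCI-LY3 at 3 h, 4 lower between times in VAL, 3 and 3 in OCI-LY3, 10 lower between lines and 16 higher for the difference at 6 h. Without the low-count filter there were 2 lower in VAL at 3 h, 14 and 2 between times in VAL, 9 lower between lines, and 1 and 9 higher for the differences at 3 h and 6 h. DESeq2 size factors gave 7 higher between times in VAL. DESeq2's Wald test gave 8 there, 23 in OCI-LY3 and 4 for the difference at 6 h. limma on the deposited log2 table gave 5 between times in VAL. limma-voom gave 1 lower in OCI-LY3 at 3 h and 1 lower for the difference at 6 h. With each line fitted alone there were 16 higher in VAL at 3 h, 2 lower in OCI-LY3 at 3 h, 0 and 0 between times in VAL, and 69 and 2 in OCI-LY3. The causes were not tested.

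The replicate numbers linked VAL 3 h with VAL 6 h, where deviations correlated at 0.742, and the main fit did not model this. In all other pairs of groups the correlation was -0.427 to 0.159. With the replicate block there were 67 and 2 in VAL at 3 h, 65 and 3 at 6 h, 71 and 0 in OCI-LY3 at 3 h, 72 and 2 at 6 h, 13 and 2 between times in VAL, 34 and 2 in OCI-LY3, 37 and 6 between lines, and 1 and 8 higher for the differences at 3 h and 6 h.

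Of 71 named gene results, 71 kept direction and side of the threshold under DESeq2 (both uses) and limma-voom, 70 under limma on log2 values and the block, 67 without the filter and 61 without a composition factor, where ATP5S in VAL at 3 h turned to -0.06. Scaled to mitochondrial mRNAs, 32 turned. In VAL at 3 h these were ATP5E -0.48, ATP5S -1.11, COX6C -0.49, NDUFA4L2 -0.41, NDUFAF2 -0.73, NDUFAF3 -0.77 and NDUFB10 -0.96. In VAL at 6 h they were ATP5E -0.79, COX6C -0.82, ETFA -1.09, MDH2 -1.04, NDUFA1 -0.86, NDUFAF2 -1.61, NDUFAF3 -1.36 and SUCLG2 -0.50. In OCI-LY3 at 3 h they were ATP5E -0.36, ATP5I -0.38, COX6C -0.37, NDUFA5 -0.67, NDUFAF2 -0.61, NDUFAF3 -0.60, NDUFC1 -0.65 and NDUFS1 -0.74. In OCI-LY3 at 6 h they were ATP5E -0.35, DLD -0.69, NDUFA2 -0.37, NDUFA8 -1.12, NDUFAF1 -1.16, NDUFAF2 -0.76, NDUFAF3 -0.80, NDUFAF8 -0.84 and UQCRH -0.36. Scaled to ribosomal protein mRNAs, 22 turned. In VAL at 3 h these were ATP5S -0.54, NDUFAF2 -0.22, NDUFAF3 -0.25 and NDUFB10 -0.46, and at 6 h ATP5E -0.01, COX6C -0.02, ETFA -0.29, MDH2 -0.23, NDUFA1 -0.07, NDUFAF2 -0.80 and NDUFAF3 -0.55. In OCI-LY3 at 3 h they were NDUFA5 -0.23, NDUFAF2 -0.16, NDUFAF3 -0.16, NDUFC1 -0.21 and NDUFS1 -0.31, and at 6 h DLD -0.26, NDUFA8 -0.69, NDUFAF1 -0.73, NDUFAF2 -0.33, NDUFAF3 -0.37 and NDUFAF8 -0.41.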
